A study of Mus musculus with 4 samples.

Results

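The blood-brain barrier transporters described here are 10 genes of the 31053 counted, namely Slc2a1, Mfsd2a, Abcb1a, Abcg2, Slc7a5, Slco1c1, Slco1a4, Slc16a1, Slc38a5 and Slc22a8. They were taken by name, and their levels were read in endothelial nuclei and in all other nuclei of each library. A nucleus was called endothelial when it held at least 5 unique molecular identifiers (UMIs, each a counted transcript) of Flt1, Cldn5, Adgrl4 and Mecom together, and 4516 of 78728 nuclei met this gate. None of the 10 transporters is part of the gate. All 10 had at least 100 UMIs in endothelial nuclei, the minimum used for counts over all genes.

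Single-nucleus RNA-seq was run on brain tissue of male C57BL/6J mice that had received AAV serotype 9 by intra-cisterna magna injection, that is, into the cerebrospinal fluid at the base of the brain, at 4 weeks of age. AAV-VEGF-C delivered full-length murine VEGF-C, a growth factor, and AAV-CTRL a soluble immunoglobulin fusion of VEGF receptor 3 domains that does not bind VEGF-C, so that the control mice also received a virus and a secreted protein. Brains were taken at 8 weeks and those of 5 mice were pooled per AAV group. There were 4 libraries, 1 per group. Values are given for the cortex first (AAV-CTRL, then AAV-VEGF-C) and then for the striatum in the same order of viruses. With 1 library per group there was no replicate check and no test. Each difference therefore describes a pair of libraries. Mice cannot be told apart from the AAV label, nor pools and preparations from the AAV or region label. Both regions of an AAV group came from the same mice.

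Brain capillary endothelial cells are sealed to each other by tight junctions, so that polar molecules cross into brain tissue through transporters and not between cells. Some of these proteins carry fuels, amino acids, lipids and thyroid hormone inward, while ATP-driven pumps return many drugs and toxins to the blood. Together they are classical markers of a mature barrier endothelium, and peripheral endothelium holds most of them at a low level or not at all.

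The libraries held 17168, 20370, 23724 and 17466 nuclei with 63165470 to 78332657 UMIs. Endothelial nuclei made up 5.28% to 6.53% of them and had a median of 2130 to 2445 UMIs, against 2278 to 2940 in other nuclei. Levels are UMIs of a gene per 1000000 UMIs summed over the same nuclei (CPM), with exact 95% Poisson intervals. Ratios carry exact conditional binomial intervals. All intervals cover counting error only. Endothelial genes outside the gate were high in the gated nuclei, with 8 such genes between 10.8-fold (Tek) and 151-fold (Cyyr1) their level in other nuclei. Of the endothelial nuclei, 32.5% to 37.4% also passed the marker gate of another cell class, 22.6% to 27.9% that of pericytes, and 1.45% to 1.64% of the barcodes of a library occurred in another library too. Striatal neuron genes did not follow the region labels. Ppp1r1b stood at 62.6, 74.8, 18.1 and 18.1 CPM over all nuclei, and Drd1 at 27.0, 34.3, 11.1 and 9.97, so that both were lower in the libraries labelled striatum. Vegfc stood at 12.2, 11.6, 12.9 and 12.1 CPM and did not separate the AAV labels. Whether a vector transcript would be counted as Vegfc was not tested.

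The 10 transporters were concentrated in endothelial nuclei in every library. Summed, they reached 4827 (4751 to 4904), 4192 (4127 to 4257), 3874 (3822 to 3927) and 4246 (4182 to 4311) CPM there, against 140, 123, 171 and 149 CPM in other nuclei. Endothelial nuclei held 5.00%, 4.93%, 6.96% and 5.83% of all UMIs but 64.5%, 63.8%, 62.8% and 63.8% of the UMIs of these genes. Of the 10, 9 were at least 4-fold higher in endothelial than in other nuclei in all 4 libraries, against 6.37% of the 12773 genes with enough UMIs. The exception was Slc16a1, at 3.58-fold in the library labelled striatum AAV-CTRL, and without that library all 10 passed. The median endothelial nucleus held UMIs of 5 of the 10 genes, while the median neuron held 0. Neurons are nuclei with at least 10 UMIs of Rbfox3, Snap25, Syt1 and Grin2b and no other gate, and their median depth was 4336 to 4938 UMIs.

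**Figure D1:**
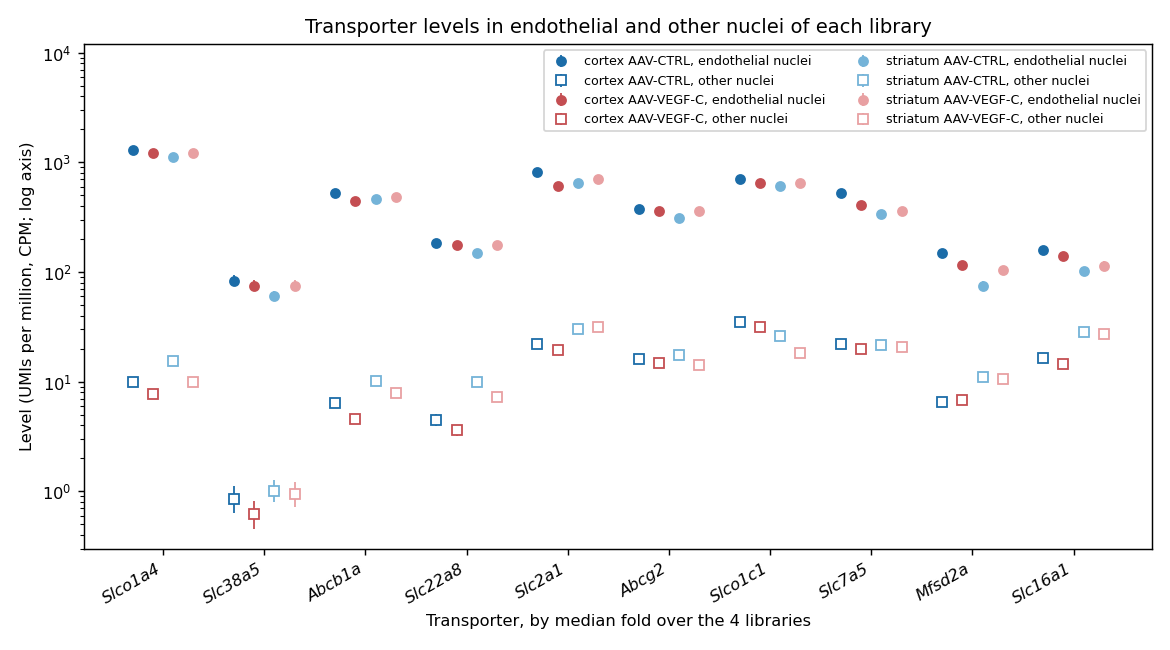
Level of each transporter in the 4 libraries on a log axis in CPM, with endothelial nuclei and other nuclei as separate points and bars showing 95% Poisson intervals. In every library and for every gene the endothelial point lies above that of the other nuclei, with Slc16a1 showing the smallest gap (3.58-fold to 9.60-fold) and Slco1a4 the largest (72.6-fold to 156-fold).

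Slc2a1 encodes the glucose transporter GLUT1, the main route of glucose into brain. The gene (ENSMUSG00000028645) lies on the plus strand of chr4:119108711-119137983 in GRCm38 and overlaps 2 counted genes on the minus strand, Gm12867 and Gm12868. In endothelial nuclei it stood at 813 (782 to 845), 613 (588 to 638), 653 (631 to 675) and 705 (679 to 732) CPM, highest in the library labelled cortex AAV-CTRL and lowest in that labelled cortex AAV-VEGF-C. Other nuclei had 21.9, 19.6, 30.4 and 31.7 CPM, which is 37.2-fold, 31.2-fold, 21.5-fold and 22.2-fold less. Between 69.5% and 77.2% of endothelial nuclei held a UMI of Slc2a1, as did 5.38% to 7.10% of neurons. After every nucleus had been thinned to 1000 UMIs the endothelial share was 41.9% to 53.8%. The neuronal glucose transporter gene Slc2a3 ran the other way, at 41.5 to 51.0 CPM in endothelial and 92.0 to 107 CPM in other nuclei.

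Slc7a5, on the minus strand of chr8:121881150-121907694 (ENSMUSG00000040010), encodes LAT1, which carries large neutral amino acids. It overlaps Gm20388, a counted gene on the plus strand. Its endothelial levels were 527 (502 to 553), 408 (388 to 428), 339 (323 to 355) and 363 (345 to 383) CPM, and the 4 intervals overlapped only between the 2 libraries labelled striatum. It was 15.7-fold to 24.0-fold higher than in other nuclei. Among neurons 8.44% to 9.57% held a UMI of it, the highest neuronal share of the 10 genes.

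Slc16a1, on the plus strand of chr3:104638668-104658462 (ENSMUSG00000032902), encodes the monocarboxylate transporter MCT1 for lactate and ketone bodies. In endothelial nuclei its levels were 157 (144 to 172), 140 (128 to 152), 103 (94.3 to 112) and 114 (104 to 125) CPM. Other nuclei had 16.6, 14.6, 28.6 and 27.4 CPM, so that the libraries labelled striatum were lower in endothelial and higher in other nuclei. The endothelial excess was accordingly 9.48-fold and 9.60-fold in the libraries labelled cortex and 3.58-fold and 4.17-fold in those labelled striatum.

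Slc38a5, on the plus strand of chrX:8271133-8280179 (ENSMUSG00000031170), encodes SNAT5, a transporter of glutamine and other neutral amino acids. Its endothelial levels were 83.5 (73.8 to 94.2), 74.9 (66.5 to 84.1), 60.6 (54.2 to 67.6) and 75.2 (66.9 to 84.3) CPM. Although only 13.2% to 15.6% of endothelial nuclei held a UMI, it was 59.7-fold to 121-fold higher there than in other nuclei. Neurons held a UMI in 0.22% to 0.285% of nuclei. It was therefore among the most restricted of the 10 genes.

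Mfsd2a, on the minus strand of chr4:122946850-122961188 (ENSMUSG00000028655), encodes the carrier of lysophosphatidylcholine-bound docosahexaenoic acid, and its loss opens transcytosis at the barrier. Of the 10 genes it varied most between libraries. Endothelial nuclei had 149 (136 to 163), 116 (105 to 127), 74.6 (67.4 to 82.2) and 104 (93.8 to 114) CPM. The level in the library labelled striatum AAV-CTRL lay below the intervals of the other 3. Other nuclei had 6.55, 6.79, 10.9 and 10.6 CPM, and the endothelial excess was 22.8-fold, 17.0-fold, 6.82-fold and 9.77-fold.

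Slco1c1, on the plus strand of chr6:141524368-141570177 (ENSMUSG00000030235), encodes OATP1C1, a high-affinity thyroxine carrier. Its endothelial levels were 706 (677 to 736), 651 (626 to 677), 604 (584 to 626) and 644 (619 to 670) CPM. It was 20.0-fold, 20.7-fold, 23.3-fold and 35.1-fold higher than in other nuclei, which had 35.3, 31.4, 25.9 and 18.4 CPM. The level in other nuclei was thus lower in the libraries labelled striatum.

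Slco1a4, on the minus strand of chr6:141805440-141856199 (ENSMUSG00000030237), encodes an organic anion transporting polypeptide of broad substrate range. It had the largest excess and the widest detection, with 1307 (1267 to 1347), 1210 (1176 to 1246), 1116 (1088 to 1145) and 1221 (1186 to 1256) CPM. Endothelial nuclei held a UMI of it in 85.8%, 84.7%, 76.4% and 84.4% of cases, and neurons in 1.94% to 3.25%. The near copies Slco1a5 and Slco1a6 stayed at 1.52 to 8.00 and at 0.19 to 0.52 CPM in endothelial nuclei, and how reads shared with these copies were assigned is not given in the sources used here.

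Slc22a8, on the plus strand of chr19:8591254-8611835 (ENSMUSG00000063796), encodes the organic anion transporter OAT3. In endothelial nuclei it had 182 (168 to 198), 177 (164 to 190), 149 (139 to 160) and 178 (165 to 192) CPM. Other nuclei had 4.48, 3.59, 9.98 and 7.19 CPM, and the excess was 15.0-fold to 49.2-fold.

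Both efflux pumps were endothelial as well. Abcb1a, on the plus strand of chr5:8660077-8748575 (ENSMUSG00000040584), encodes P-glycoprotein and stood at 528 (503 to 554), 445 (424 to 466), 464 (446 to 483) and 483 (462 to 505) CPM. It was 45.4-fold to 97.7-fold higher than in other nuclei. Its paralogue Abcb1b was at 5.02 to 7.85 CPM in endothelial and 8.74 to 11.4 CPM in other nuclei, and so was not endothelial. Abcg2, on the plus strand of chr6:58584523-58695676 (ENSMUSG00000029802), encodes the breast cancer resistance protein and stood at 373 (352 to 395), 358 (340 to 378), 311 (296 to 326) and 358 (340 to 378) CPM. Its excess was 17.9-fold to 25.2-fold, and only the level of the library labelled striatum AAV-CTRL lay below the intervals of the others.

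Endothelial nuclei without any UMI of the 10 genes were few, with 1.31%, 1.21%, 8.01% and 1.95%. The library labelled striatum AAV-CTRL thus held several times the share of the others, at a like median depth of 2195 UMIs. After thinning to 1000 UMIs the shares were 5.50%, 6.90%, 14.8% and 8.70%. At least 5 of the 10 genes were seen in 61.3%, 58.0%, 55.5% and 65.1% of endothelial nuclei, and in 0.0364% to 0.0808% of neurons.

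The level of every transporter followed the number of gate UMIs. Pooled over the libraries, Slco1a4 stood at 6.65 CPM in nuclei with 0 gate UMIs, 22.7 with 1 or 2, 290 with 3 or 4, 603 with 5 or 6, 773 with 7 to 9, 1046 with 10 to 19 and 1507 with 20 or more. Just outside the gate, at 3 or 4 gate UMIs, there were 791 nuclei, and just inside, at 5 or 6, there were 552. Slc2a1 went from 212 to 319 CPM over that step, Abcb1a from 103 to 226 and Slc38a5 from 16.2 to 24.5. All 10 genes were higher in each bin than in the one before. Depth moved too, with a median of 1459.5 UMIs at 5 or 6 gate UMIs and 4007 at 20 or more, and its part in the trend was not tested.

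**Figure D2:**
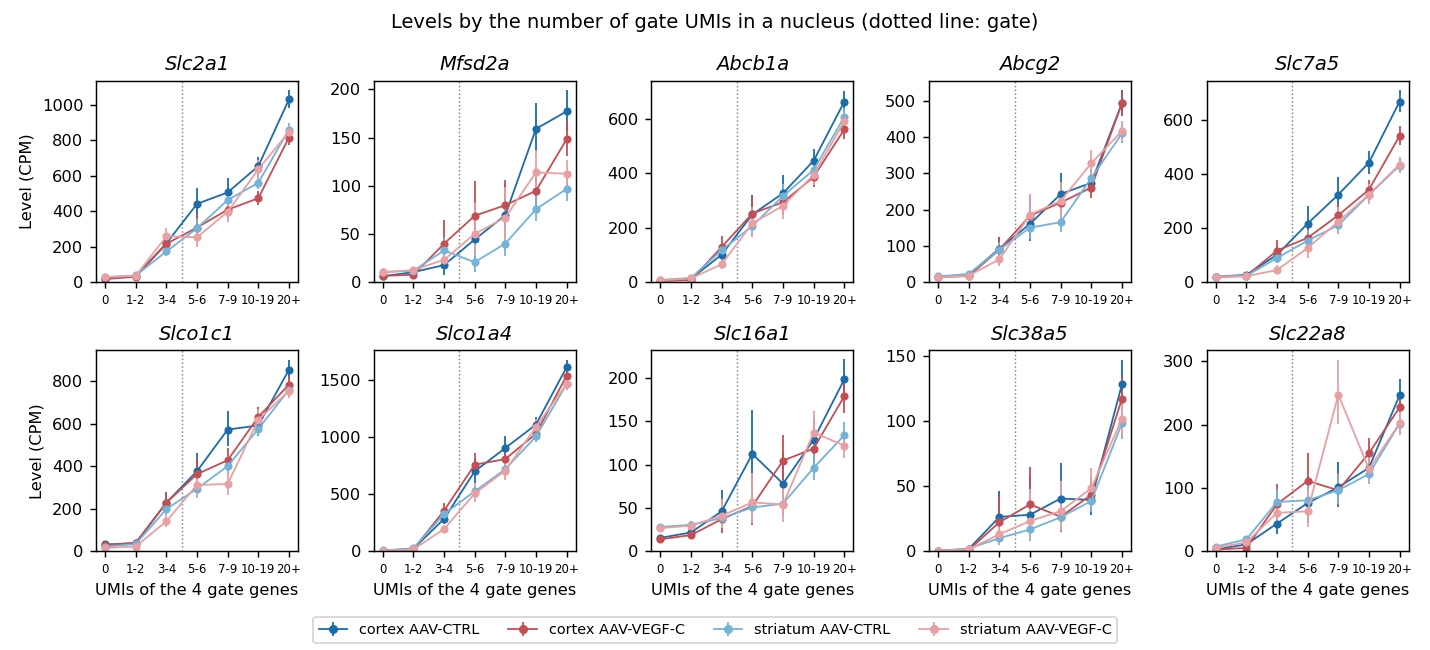
Level of each transporter in CPM (linear axis from 0) against the UMIs of Flt1, Cldn5, Adgrl4 and Mecom in a nucleus, in bins from 0 to 20 or more, with a line per library, bars for 95% Poisson intervals and a dotted line at the gate. The lines climb from near 0 to their highest level at 20 or more gate UMIs except in the library labelled striatum AAV-VEGF-C, where Slc22a8 peaks at 7 to 9 gate UMIs and Slc16a1 and Mfsd2a at 10 to 19.

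Outside the endothelium the transporters were not evenly low. Nuclei of 11 other classes were taken by gates of 4 marker genes each and had to pass 1 gate only. Over 110 pairs of a gene and a class, pooled over the libraries, 10 pairs reached at least 25% of the endothelial level. As a gauge of carry-over, the 8 endothelial genes outside the gate were read in the same nuclei. They kept 1.77% to 5.63% of their endothelial level in 9 of the classes, 12.2% in smooth muscle-gate and 16.3% in pericyte-gate nuclei.

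Slc22a8 was higher in fibroblast-gate nuclei (Dcn, Col1a2, Ranbp3l and Slc6a13) than in endothelial ones, at 135% (121 to 150) of the endothelial level. The 4 libraries had 238, 186, 234 and 233 CPM in 119, 90, 373 and 125 such nuclei. The endothelial genes outside the gate were at 5.63% there. In pericyte-gate nuclei Slc22a8 was at 54.3% (42.2 to 68.8) of the endothelial level, with 96.8, 67.1, 87.1 and 135 CPM.

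Slco1c1 was shared with choroid plexus and astrocytes. Choroid plexus-gate nuclei (Folr1, Slc4a5, Kcnj13 and Otx2) numbered only 86 and reached 67.1% (57.2 to 78.3) of the endothelial level, with 331, 349, 456 and 868 CPM. Astrocyte-gate nuclei (Aqp4, Gja1, Slc39a12 and Fgfr3) had 304 (270 to 342), 277 (249 to 308), 135 (122 to 149) and 107 (93.4 to 121) CPM. In these nuclei both libraries labelled striatum were lower than both labelled cortex, with log2 ratios of −1.17 (−1.40 to −0.95) under AAV-CTRL and −1.38 (−1.62 to −1.13) under AAV-VEGF-C. This pair was chosen after its values were seen. The pooled share of the endothelial level was 26.8% (25.2 to 28.4) in astrocyte-gate nuclei. With a class gate of at least 10 UMIs it was 14.5%, and that of choroid plexus-gate nuclei was 102%.

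Slc16a1 had the widest distribution, reaching at least 25% of the endothelial level in 4 other classes. It was at 52.0% (34.5 to 75.4) in ependymal-gate, 39.3% (35.0 to 44.0) in astrocyte-gate, 35.1% (32.7 to 37.7) in oligodendrocyte-gate and 29.4% (19.5 to 42.6) in pericyte-gate nuclei. MCT1 in oligodendrocytes is known for supplying lactate to axons. Oligodendrocyte-gate nuclei had 34.5 (29.0 to 40.6), 32.7 (28.1 to 37.8), 47.9 (43.6 to 52.6) and 51.2 (46.5 to 56.2) CPM, so that both libraries labelled striatum lay above both labelled cortex. Astrocyte-gate nuclei showed the same order, with 26.0, 30.6, 63.9 and 49.9 CPM, the reverse of the endothelial order. At a class gate of at least 10 UMIs the astrocyte share was 90.9%.

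Slc2a1 was at 42.5% (35.4 to 50.7) of the endothelial level in ependymal-gate nuclei (146 nuclei), with 388, 334, 277 and 213 CPM. Mfsd2a was at 35.7% (31.3 to 40.6) in astrocyte-gate nuclei, with 22.7, 37.1, 37.2 and 45.3 CPM, while the endothelial genes outside the gate kept 2.01% there. Below 25%, Abcg2 was at 22.9% in fibroblast-gate nuclei, with 60.3, 56.2, 75.6 and 118 CPM, at 16.7% in pericyte-gate nuclei, near the 16.3% of the endothelial genes outside the gate, and at 15.4% in microglia-gate nuclei, and Slco1a4 at 14.1% in choroid plexus-gate nuclei. Abcb1a stayed at or under 12.1% and Slc7a5 at or under 12.2% of the endothelial level in all 11 classes. Slc38a5 had 0 UMIs in ependymal-gate and choroid plexus-gate nuclei and stood at 0.7% of its endothelial level in neurons. Nuclei passing the gate of Pdgfra, Cspg4, Vcan and Lhfpl3 are named by these genes only, because 71.7% of them also held at least 10 neuronal UMIs.

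**Figure D3:**
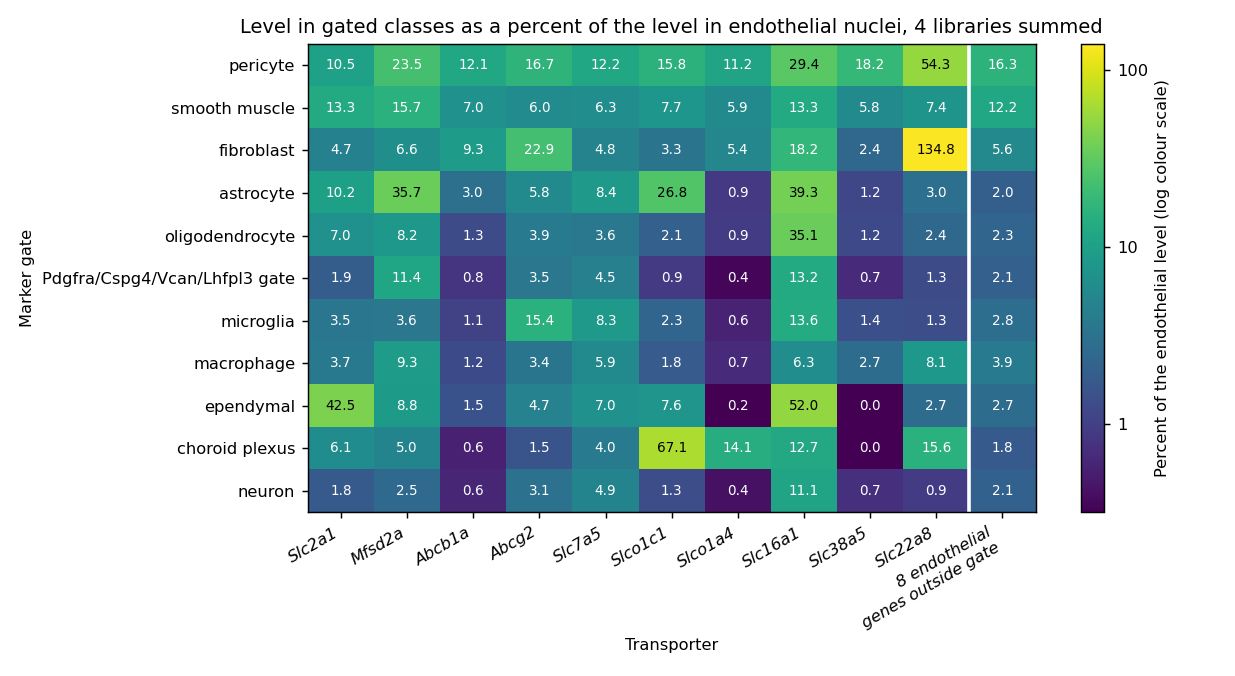
Level of each transporter (columns) in 11 marker-gated classes of nuclei (rows), summed over the 4 libraries, as a percent of its level in endothelial nuclei, on a log colour scale with brighter cells for higher percents. The last column gives the 8 endothelial genes outside the gate in the same nuclei. The brightest cells are Slc22a8 in fibroblast-gate (135%) and pericyte-gate (54.3%) nuclei, Slco1c1 in choroid plexus-gate (67.1%) and Slc16a1 in ependymal-gate (52.0%) nuclei.

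Within the endothelium some of the transporters differed between nuclei grouped by arterial and venous markers. Endothelial nuclei with at least 2 UMIs of arterial markers and 0 of venous ones (226 nuclei) were set beside the reverse (627) and those with 0 of both (1628), which are called unmarked. Arterial markers were Bmx, Sema3g, Efnb2, Gkn3, Alpl and Dll4, and venous markers Vwf, Nr2f2, Ackr1, Vcam1, Lcn2, Ephb4, Selp and Il1r1. Pooled over the libraries, 3 of the 10 genes were at least 1.5-fold higher in venous-marked than in arterial-marked nuclei, against 9.45% of 7383 genes, and 1 was at least 1.5-fold lower, against 5.55%. The median log2 ratio of the 10 was 0.40, against 0.02 over all genes counted. In unmarked over arterial-marked nuclei 4 were at least 1.5-fold higher and 0 lower, against 6.01% and 3.01% of 8276 genes.

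Slc38a5 showed the largest difference. Arterial-marked nuclei had 31.5, 0, 18.0 and 7.22 CPM, unmarked nuclei 55.5, 51.5, 44.4 and 50.2 CPM, and venous-marked nuclei 160, 201, 134 and 188 CPM. In every library the venous-marked nuclei were highest and the arterial-marked lowest. The arterial level rests on 11 UMIs in all, and the 0 in the library labelled cortex AAV-VEGF-C allows up to 20.4 CPM. Pooled, the log2 ratio of venous over arterial was 3.48 (2.62 to 4.49), or 11.1-fold. It was 2.36 with at least 1 marker UMI and 2.93 without nuclei that pass another gate.

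Slc16a1 was higher in venous-marked nuclei in all 4 libraries, with 57.7, 77.5, 45.0 and 116 CPM in arterial-marked and 196, 224, 145 and 137 CPM in venous-marked nuclei. The pooled log2 ratio was 1.30 (0.88 to 1.74), and the library labelled striatum AAV-VEGF-C contributed least, at 0.25. Slc22a8 followed with 0.94 (0.60 to 1.31), from 94.2 to 121 CPM in arterial-marked and 189 to 220 CPM in venous-marked nuclei, which did not overlap. Mfsd2a ran the opposite way, with 178, 127, 94.5 and 159 CPM in arterial-marked and 124, 98.8, 67.0 and 70.8 CPM in venous-marked nuclei. Its log2 ratio was −0.68 (−1.02 to −0.33) and it was lower in venous-marked nuclei in 4 of 4 libraries. Slco1c1 was lower too, at −0.38 (−0.52 to −0.24). Slc2a1 differed by −0.07 (−0.20 to 0.07), with opposite signs among the libraries. With at least 1 marker UMI, only Slc38a5 stayed past 1.5-fold. Venous-marked nuclei were deeper, with a median of 3109 UMIs against 2354 in arterial-marked and 1670 in unmarked nuclei.

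**Figure D4:**
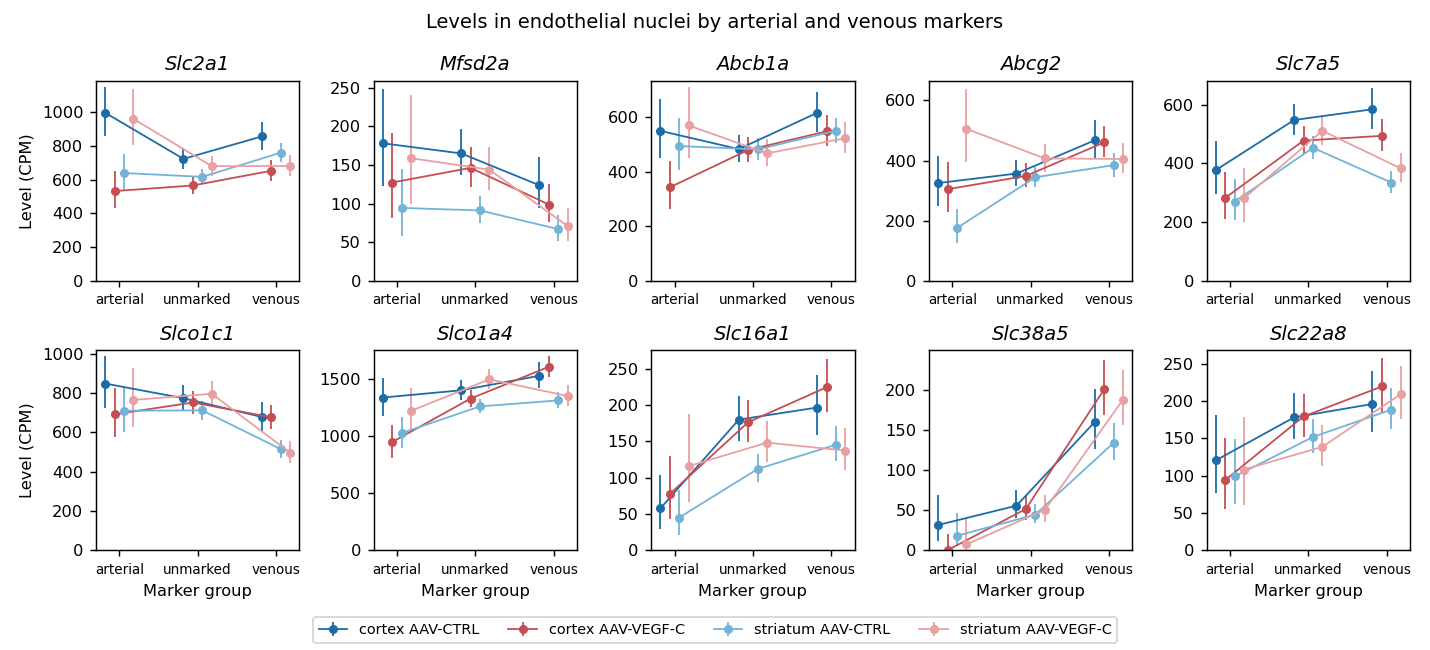
Level of each transporter in CPM (linear axis from 0) in arterial-marked, unmarked and venous-marked endothelial nuclei, with a point for each library and bars for 95% Poisson intervals. Slc38a5 climbs from 0 to 31.5 CPM in arterial-marked to 134 to 201 CPM in venous-marked nuclei, Slc16a1 and Slc22a8 climb less, and Mfsd2a is lower in venous-marked than in arterial-marked nuclei of each library.

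The endothelial nuclei that passed a second gate were read apart. Pooled over the libraries, 2880 nuclei passed the endothelial gate only, 1144 also that of pericytes and 492 another one. The 492 were lower for all 10 genes, with Slco1a4 at 475 CPM against 1377 in nuclei of the endothelial gate only and Mfsd2a at 37.0 against 127. Nuclei that also passed the pericyte gate were much deeper (a median of 4377 against 1711 UMIs), and in them Slc38a5 stood at 101 CPM against 58.2 and Slc22a8 at 225 against 155. Leaving out all nuclei that passed a second gate moved the comparisons between labels.

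Between AAV labels in cortex, all 10 transporters were lower in the library labelled AAV-VEGF-C, none by as much as 1.5-fold, while 50.7% of all genes were lower. Slc2a1 had a log2 ratio of −0.41 (−0.49 to −0.33), from 813 to 613 CPM. Mfsd2a (−0.37, −0.56 to −0.18) and Slc7a5 (−0.37, −0.47 to −0.27) followed, and Abcb1a was at −0.25 (−0.35 to −0.15). The intervals of Abcg2, Slc16a1, Slc38a5 and Slc22a8 included 0. Over all genes, 0.803% were at least 1.5-fold lower and 1.23% higher. The median ratio of the 10 was −0.16, against −0.003 over 10082 genes. Without nuclei that pass another gate 8 of the 10 were lower and 2 higher, with Slc22a8 at 0.32 (0.04 to 0.60) in place of a value below 0.

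Between AAV labels in striatum, all 10 were higher in the library labelled AAV-VEGF-C, again none by 1.5-fold, while 46.2% of all genes were higher. Mfsd2a had the largest ratio, 0.47 (0.27 to 0.68), from 74.6 to 104 CPM. Slc38a5 was at 0.31 (0.08 to 0.54), Slc22a8 at 0.26 (0.11 to 0.40) and Abcg2 at 0.20 (0.10 to 0.31), and those of the other 6 were between 0.06 and 0.15. Of all genes 1.98% were at least 1.5-fold higher and 4.40% lower, and the median of the 10 was 0.14 against −0.03. Without nuclei that pass another gate 8 were higher and 2 lower, with Mfsd2a at 0.65, past 1.5-fold, Slc22a8 at −0.03 (−0.29 to 0.22) and Slc38a5 at −0.01 (−0.43 to 0.40).

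Summed, the gate genes, whose values chose the nuclei and are given as a description, and the other endothelial genes had ratios near that of the summed transporters. In cortex the sum of the 10 transporters had a log2 ratio of −0.20 (−0.24 to −0.17), that of the 4 gate genes −0.19 and that of the 8 endothelial genes outside the gate −0.17. In striatum the values were 0.13 (0.10 to 0.16), 0.13 and 0.16. Single gate genes differed, with Flt1 at 0.22 and Cldn5 at 0.26 in striatum but Mecom at −0.25 (−0.31 to −0.19). Scaled to those 8 genes in place of all UMIs, the median of the 10 was 0.01 in cortex and −0.01 in striatum. Fewer endothelial transcripts per nucleus and more RNA of other origin in the same droplets cannot be told apart here. On that scale Slc2a1 was at −0.24 in cortex and Mfsd2a at 0.32 in striatum.

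Between region labels under AAV-CTRL, all 10 were lower in the library labelled striatum, and every interval excluded 0, while 42.2% of all genes were lower. Mfsd2a was at −1.0 (−1.20 to −0.81), from 149 to 74.6 CPM. Slc7a5 was at −0.64 (−0.73 to −0.54) and Slc16a1 at −0.62 (−0.79 to −0.44). These 3 were past 1.5-fold, against 4.81% of 11018 genes lower and 10.6% higher. The other 7 were between −0.19 and −0.46. Without nuclei that pass another gate the median of the 10 turned from −0.30 to 0.09, close to the 0.10 of all genes, 7 were higher and 3 lower, and only Mfsd2a remained past 1.5-fold, at −0.76. Scaled to the 8 other endothelial genes the median was −0.01 and Mfsd2a stood at −0.71.

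Under AAV-VEGF-C the region labels differed little, with a median of 0.003 and 5 genes on either side. Slc2a1 was higher in the library labelled striatum, at 0.20 (0.12 to 0.28), and Slc16a1 lower, at −0.29 (−0.47 to −0.11). Slc7a5 was at −0.17 (−0.27 to −0.06) and Mfsd2a at −0.16 (−0.36 to 0.04). None reached 1.5-fold, which 5.96% of all genes exceeded upward and 5.67% downward. Without nuclei that pass another gate the median was 0.36, with 9 higher and 1 lower. Slc7a5 was then at 0.34 (0.18 to 0.50), Mfsd2a at 0.27 (−0.02 to 0.57) and Slc16a1 at 0.02 (−0.26 to 0.30), so that these 3 no longer lay below 0. The 4 contrasts share libraries, and cortex AAV-CTRL was the highest library for 10 of 10 genes and striatum AAV-CTRL the lowest for 8.

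**Figure D5:**
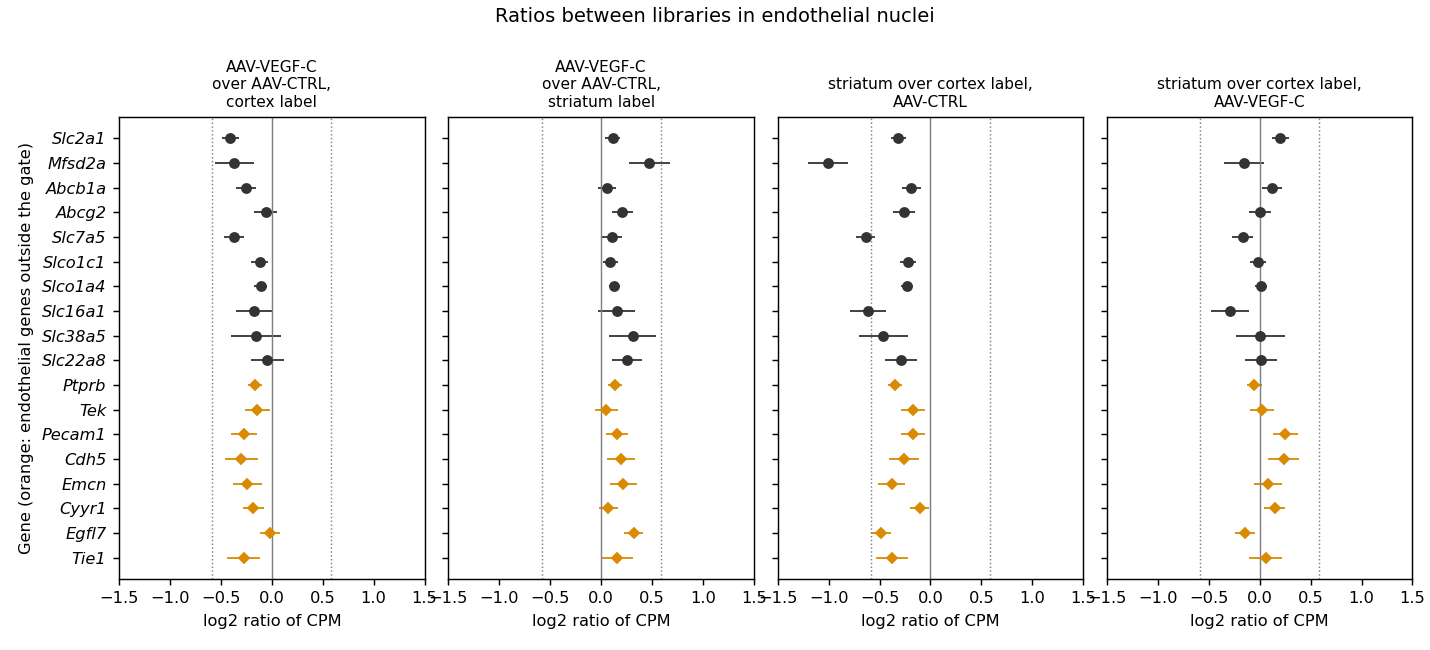
The log2 ratio of endothelial CPM between libraries for the 10 transporters (black) and 8 endothelial genes outside the gate (orange), in 4 panels, with bars for 95% counting intervals and dotted lines at 1.5-fold. The black points lie below 0 between AAV labels in cortex and between region labels under AAV-CTRL, above 0 between AAV labels in striatum and around 0 under AAV-VEGF-C, and the orange points move with them. The lowest point is Mfsd2a at −1.0.

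Other transcripts in the endothelial nuclei moved between the libraries as well. Summed haemoglobin genes (Hba-a1, Hba-a2, Hbb-bs and Hbb-bt) stood at 5106, 3824, 1893 and 3622 CPM, in the same order of libraries as the summed transporters except for the 2 labelled AAV-VEGF-C. The 4 oligodendrocyte markers stood at 208, 239, 438 and 377 CPM, those of fibroblasts at 198, 227, 410 and 505, and those of astrocytes at 208, 206, 360 and 295, so that the libraries labelled striatum held more of all 3. Neuronal markers ran the other way, at 2594.5, 2591, 1746 and 1469 CPM, and were lower in both libraries labelled striatum. Pericyte markers were at 1198, 1214, 979 and 1190 CPM. The part of these transcripts in the contrasts was not tested.

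For Slc22a8 the fibroblast markers touched single nuclei. In the library labelled striatum AAV-VEGF-C 3 nuclei with 7 gate UMIs each held 30, 23 and 20 UMIs of Slc22a8 beside 94, 226 and 127 UMIs of the fibroblast markers, and they were chosen after their values were seen. Without fibroblast-gate nuclei the endothelial level of Slc22a8 was 179, 182, 150 and 172 CPM, and the log2 ratio between AAV labels in striatum was 0.20 (0.03 to 0.37).

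A wider list of 40 transporters and receptors of the barrier was read by the same folds. Of 39 with enough UMIs, 12 were at least 4-fold higher in endothelial nuclei in all 4 libraries, against 6.37% of all genes. Of these 12, the 5 with the most endothelial UMIs are described. Bsg encodes basigin, the chaperone of monocarboxylate transporters, and was 12.2-fold to 22.0-fold higher. The taurine carrier Slc6a6 was 5.92-fold to 7.11-fold higher. The efflux pump gene Abcc4 (11.6-fold to 15.8-fold), the cationic amino acid carrier Slc7a1 (7.74-fold to 10.8-fold) and the zinc exporter Slc30a1 (7.77-fold to 9.14-fold) followed. Past 1.5-fold between AAV labels were 1 higher and 0 lower of 37 in cortex, against 1.23% and 0.803% of all genes, and 1 higher and 0 lower of 38 in striatum, against 1.98% and 4.40%. Between region labels, 6 of 38 were higher and 1 lower under AAV-CTRL, against 10.6% and 4.81%. Under AAV-VEGF-C 2 of 38 were higher and 0 lower, against 5.96% and 5.67%. None of the list was past 1.5-fold in the same direction between AAV labels in both regions. Between region labels, the glycine carrier Slc6a9 was higher in the library labelled striatum under both viruses, with log2 ratios of 1.27 and 1.20, as was the prostaglandin carrier Slco2a1, with 0.77 and 1.02. Neither was concentrated in endothelial nuclei, with 0.77-fold to 0.88-fold (Slc6a9) and 0.81-fold to 1.15-fold (Slco2a1) the level of other nuclei. Other nuclei also had more in the libraries labelled striatum, with 19.8, 22.7, 50.5 and 55.5 CPM of Slc6a9 and 11.4, 10.2, 16.4 and 17.8 of Slco2a1. The medians of the list were −0.03, 0.05, −0.10 and 0.00 in the order of contrasts above.

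Genes with the most similar pattern were sought over 32 points, 8 classes in each of 4 libraries, by Pearson's r of log2(CPM + 1) among 12763 genes. The points share libraries and classes, so that r is a description only. For the sum of the 10 transporters they were Id1 (0.98), Pltp (0.97), Nfkbia (0.96), Ramp2 (0.96) and Gng5 (0.96). Slco1a4 was followed most closely by Kdr (0.99), the gene of VEGF receptor 2, and Abcb1a by Klf4 (0.98). Slc38a5 was followed by Tie1 (0.95) and Slc22a8 by Arhgap29 (0.98). The weakest first-ranked genes were Parvb for Slc16a1 (0.86) and Hip1 for Mfsd2a (0.89).

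Promoter sequence was available from RefSeq (GRCm38.p6) for 9 of the 10 genes in 11 windows, each of the 250 bases before a transcript start. The TCF/LEF letters CTTTGA or CTTTGT, the motif of the Wnt pathway effectors that act in barrier endothelium, occurred on either strand in 4 of the 11 windows, against 27.6% of 32851 windows of the same length. The ETS letters CCGGAA occurred in 0 of 11 windows, against 12%. Abcg2 alone had 3 of the 11 windows, which held neither motif, so that the windows do not stand for 11 separate genes. Shown are 3 of the 4 windows with TCF/LEF letters, in capitals, and that of Slc38a5, the gene with the largest venous difference, which held neither motif. The fourth was that of Abcb1a, whose RefSeq start lies upstream of the GENCODE gene given above. The windows of Slc22a8 and Slc38a5 lie inside or across the start of the GENCODE gene, as do those of Slc2a1 and Abcg2, which are not shown. A match is a description of letters only.
Mfsd2a, chr4:122961189-122961438, minus strand: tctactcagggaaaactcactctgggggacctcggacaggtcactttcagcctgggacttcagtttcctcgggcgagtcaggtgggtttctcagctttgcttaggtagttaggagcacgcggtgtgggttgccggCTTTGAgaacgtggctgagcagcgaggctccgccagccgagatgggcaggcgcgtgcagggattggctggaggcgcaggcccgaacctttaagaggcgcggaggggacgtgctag
Slco1c1, chr6:141524104-141524353, plus strand: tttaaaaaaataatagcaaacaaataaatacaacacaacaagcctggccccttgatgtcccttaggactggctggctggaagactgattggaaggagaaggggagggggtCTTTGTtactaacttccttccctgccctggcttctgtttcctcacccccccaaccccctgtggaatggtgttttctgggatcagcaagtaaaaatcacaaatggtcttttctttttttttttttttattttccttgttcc
Slc22a8, chr19:8592932-8593181, plus strand: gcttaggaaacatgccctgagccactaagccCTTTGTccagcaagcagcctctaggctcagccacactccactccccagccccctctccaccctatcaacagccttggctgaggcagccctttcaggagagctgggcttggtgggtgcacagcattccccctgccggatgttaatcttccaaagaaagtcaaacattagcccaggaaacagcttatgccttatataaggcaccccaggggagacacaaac
Slc38a5, chrX:8271131-8271380, plus strand: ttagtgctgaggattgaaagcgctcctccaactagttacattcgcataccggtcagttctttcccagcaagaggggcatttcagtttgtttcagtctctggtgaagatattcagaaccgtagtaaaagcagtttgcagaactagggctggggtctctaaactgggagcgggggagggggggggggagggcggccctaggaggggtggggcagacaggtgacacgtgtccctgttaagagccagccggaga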

How the data were processed

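Nuclei of pooled, cryopreserved tissue were isolated by the authors and run on the 10x Genomics 3′ v3 chemistry. The deposited values are raw UMI counts per gene and nucleus, made by the authors with Cell Ranger, as version 5.0.1 per the file headers and 5.1.1 per the submitters' processing notes, on mm10. Neither the gene annotation nor the treatment of intronic reads is given in the sources used here, and both bear on overlapping genes. All 4 libraries and all barcodes were used, and 0 columns of values were left out.

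UMIs were summed over nuclei and scaled to 1000000 (CPM). Endothelial nuclei held at least 5 UMIs of the 4 gate genes. Other classes held at least 5 UMIs of their 4 markers (3 of 4 were found for ependymal cells), neurons at least 10 and no other gate. The neuronal markers were Rbfox3, Snap25, Syt1 and Grin2b. No doublet caller was run, and nuclei passing a second gate were instead left out as an alternative. Genes were counted at 4-fold (endothelial over other nuclei) or 1.5-fold (between libraries), among genes with at least 100 UMIs. Genes named beside the 10 transporters were the 3 most alike for each and the 5 most alike for their sum, the 5 highest endothelial ones of a list of 40 barrier transporters and receptors, and those of that list past 1.5-fold in the same direction in both regions or under both viruses. Of the genes alike, the first for some transporters are printed.

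The 10 transporters, the lists and the gates were chosen with earlier results of these data known. Alternatives were other gates, nuclei thinned to 1000 UMIs (seed 1), per-nucleus means, totals without mitochondrial genes, TMM factors (edgeR 4.0.16 in R 4.3.3), median-of-ratios factors and other count minimums. Alternatives added after the data were seen were scaling to 8 endothelial genes, leaving out the library labelled striatum AAV-CTRL, a gate of Pdgfra and Cspg4 alone, leaving out nuclei with neuronal UMIs and leaving mixed nuclei out of the arterial and venous groups. Ratios and intervals were checked on simulated Poisson counts. These hold no spread between nuclei, mice or libraries, so that the check does not cover such spread. Python 3.11.15, numpy 2.4.6, scipy 1.17.1 and pandas 2.3.3 were used. Positions are from GENCODE on GRCm38, in which 99.6% of the 31053 gene identifiers were found.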

Additional observations from a re-analysis of the deposited data

Results flagged for a closer look

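Between AAV labels, 5 of the 10 transporters had ratios of opposite sign in cortex and striatum with both counting intervals excluding 0, against 3.15% of the 9971 genes with enough UMIs in both contrasts. Counting intervals narrow as UMIs rise, and the 9971 genes were not matched to the transporters for UMI number. The share of all genes is therefore not a like-for-like background for this count. Slco1c1 and Slco1a4, which met the criterion with small ratios, had 2232 to 6003 endothelial UMIs per library. The difference of the 2 log2 ratios, striatum minus cortex, was 0.84 for Mfsd2a, from −0.37 to 0.47. It was 0.52 for Slc2a1, from −0.41 to 0.11, and 0.47 for Slc7a5, from −0.37 to 0.10. It was 0.24 for Slco1a4, from −0.11 to 0.13, and 0.21 for Slco1c1, from −0.12 to 0.09. With 1 library per group these differences were not tested. The other 5 transporters also had opposite signs, with at least 1 interval including 0. Of the 9971 genes, 4981 had opposite signs. The sums of the 4 gate genes and of the 8 endothelial genes outside the gate also had opposite signs, though the gate gene Mecom alone did not, at −0.13 and −0.25.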

How the results depend on the processing

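Of 157 alternative values for the main comparisons, 136 stayed and 21 moved. A count stayed when within 1.5 times its main value, and a count of 0 stayed when it was 0 again. The number of transporters at 4-fold does not depend on the count minimum, so it could not move under other minimums. The tally thus includes values that were fixed in advance. Medians stayed when between the medians of the transporters' lower and upper interval limits, which are not an interval of the median itself. Between AAV labels in cortex, the median ratio was below 0 in 9 of 10 alternatives and above 0 in 1. In striatum it was above 0 in 9 and below 0 in 1. Between region labels it was below 0 in 9 and above 0 in 1 under AAV-CTRL, and in 6 and 4 under AAV-VEGF-C. For single genes and background shares, 510 stayed and 170 moved.

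Without nuclei that pass another gate, 1 transporter was at least 1.5-fold higher between AAV labels in striatum, the region median under AAV-CTRL was 0.091 with 1 transporter lower, and that under AAV-VEGF-C was 0.36. No transporter was then 1.5-fold lower in venous-marked nuclei, a count of 0. Thinning to 1000 UMIs gave medians of 0.030 between AAV labels in striatum and −0.15 between region labels under AAV-CTRL with 1 lower, and median shares of endothelial nuclei with a UMI of 34.2%, 30.2%, 28.5% and 33.0%, against 57.3%, 54.4%, 50.8% and 59.8%. For region labels under AAV-CTRL, per-nucleus means gave −0.13 with 1 lower, and median-of-ratios factors −0.43. Scaling to 8 endothelial genes gave 0.0084 and −0.015 between AAV labels in cortex and striatum, and −0.0089 with 1 lower between region labels under AAV-CTRL. With at least 1 arterial or venous UMI, 1 transporter was higher and 0 lower in venous-marked nuclei. The causes were not tested, apart from the fewer UMIs that thinning leaves.

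With a minimum of 20 UMIs or none, the background was 4.33% and 16.5% higher and 3.32% and 13.2% lower between AAV labels in cortex, and 3.87% and 11.8% higher and 8.57% and 19.2% lower in striatum. Between region labels it was 16.1% and 27.3% higher and 6.58% and 14.5% lower under AAV-CTRL, and 10.7% and 21.0% higher and 7.85% and 16.7% lower under AAV-VEGF-C. No paired analysis was possible because each comparison sets 1 library against 1, so that the groups share fewer than 2 replicate numbers, and for the same reason no replicate could be left out. Depth limits the arterial level of Slc38a5 (11 UMIs) and values in the 86 choroid plexus-gate and 146 ependymal-gate nuclei.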
